A study of Homo sapiens with 4 samples.

Results

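The genes described here are 9 members of the PARP family, PARP1, PARP2, PARP3, PARP4, PARP8, PARP9, PARP10, PARP12 and PARP14, together with DTX3L, the ubiquitin ligase partner of PARP9. They were chosen by name, and all 10 were found among the 47432 genes of the deposited expression table. T24 cells, an established line of invasive bladder carcinoma, were profiled by RNA-seq in 4 libraries, 2 of control cells and 2 of cells given isorhapontigenin (ISO), a stilbene related to resveratrol, at 20 µM for 24 h. Controls are untreated in the labels and carry the DMSO vehicle in the methods, and both groups come from 1 cell line with no genetic change. The question asked of these genes was whether the PARPs of DNA repair and the interferon-inducible PARPs responded alike to ISO.

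PARP enzymes transfer ADP-ribose from NAD onto proteins and nucleic acids. PARP1 and PARP2 are switched on by DNA breaks, build long ADP-ribose chains at the lesion and so recruit repair factors, and PARP3 acts on double-strand breaks with single ADP-ribose units. A second branch of the family, which includes PARP9, PARP10, PARP12 and PARP14, attaches single units or has little activity of its own, is induced by interferons and takes part in antiviral defence. PARP9 and DTX3L form a complex, and their genes lie head to head on chromosome 3. Interferons induce such genes through transcription factors that include STAT2 and IRF9, which bind the interferon-stimulated response element (ISRE) of promoters.

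The values are RPKM as the authors deposited them, that is, reads on the exons of a gene divided by exon length and by library size. Here they were divided by a TMM factor per library, a scaling that sets the bulk of genes to no change, because the methods state TMM for the comparison of treated with control cells. The factors were 0.971 and 0.983 for control a and b and 1.01 and 1.03 for ISO a and b. All levels below are TMM-scaled RPKM, and all changes are differences of log2(RPKM + 0.1), ISO minus control, from limma over 15304 genes whose mean RPKM reached 0.1. The threshold was an adjusted p under 0.05 (Benjamini-Hochberg, over all tested genes). Of all tested genes, 596 rose and 910 fell, and the median change was -0.005. On the deposited scale without TMM the median change was 0.057, and 1424 genes rose and 630 fell, so that 69.3% of calls were higher with ISO in place of 39.6%. Where this scaling changes the call of a named gene, both values are given. Libraries held 32349827 to 42879427 reads on genes, recovered from RPKM and exon length. Nothing in the sources says that libraries of 1 group were separate cultures, so the p-values rest on a spread between libraries that may be technical alone. In bulk RNA, fewer cells of a kind and less RNA per cell cannot be told apart. The keratins KRT8, KRT18 and KRT19 were expressed, and the epithelial markers summed to 396 to 489 RPKM over the libraries, with CDH1 below 0.1 RPKM. Of 5 urothelial markers, KRT5 was at 0 and UPK3A below 0.1 RPKM in every library. The leukocyte markers PTPRC and CD3E were at 0 in every library, while CD14 stood at 3.11 and 3.03 RPKM in control and 3.03 and 3.56 RPKM in ISO libraries. Some marker lists differed between the groups. The summed epithelial markers, mostly KRT18 and KRT8, went from 489 and 474 RPKM in control to 413 and 396 in ISO libraries. KRT18 and KRT19 fell, and KRT8 did not pass (limma adjusted p = 0.016, 0.011 and 0.085). EPCAM overlapped between the groups, at 1.17 and 1.29 RPKM in control and 1.17 and 1.26 RPKM in ISO libraries. The urothelial sum, mostly GATA3, went from 5.32 and 5.63 to 6.92 and 8.00. GATA3 alone went from 4.72 and 5.04 to 6.42 and 7.44, while UPK1A and UPK2 were low and overlapped between the groups. The endothelial sum, nearly all CDH5, went from 18.3 and 18.0 to 14.0 and 14.2. PECAM1, the other gene of that list, was low and went the other way, from 0.125 and 0.0745 to 0.165 and 0.188 RPKM. It did not pass (limma adjusted p = 0.3). The part of these marker differences in the results below was not tested.

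Among the 10 genes, PARP9, DTX3L, PARP10 and PARP14 rose with ISO, and none fell, where 3.89% of all tested genes rose and 5.95% fell. PARP1, PARP2, PARP3, PARP4, PARP8 and PARP12 did not pass the test. All 4 genes that rose belong to the interferon-inducible branch, which counts 5 genes here, and the 3 DNA-damage PARPs gave 0 calls. With only 3 genes, 0 calls do not set the DNA-damage PARPs apart from all tested genes. The median change was 0.25 over the 5 interferon-inducible genes and 0.00 over PARP1, PARP2 and PARP3, beside -0.005 over all tested genes. Limma-voom on recovered reads, in which 7.5% of genes rose, and the deposited scale, on which 9.3% rose and 4.12% fell, called the same 4 members and no other. Both ISO libraries lay above both controls in 5 of the 10 genes, PARP2 being the fifth, against 27.3% of all tested genes, and below them in PARP3 alone, against 29.8%.

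The promoters of the interferon-inducible genes were searched for the ISRE, taken as GAAA, then 2 bases of any kind, then GAAA, on both strands of the RefSeq windows (GRCh38.p14) from 250 bases before to 50 bases after a start site. The windows hold 8 of the 10 genes, and PARP4 and PARP10 have no entry. An ISRE match was found for PARP9, DTX3L, PARP14 and PARP12, and in no window of PARP1, PARP2, PARP3 or PARP8. Of all 35116 windows, 1255 (3.57%) hold one. The match of DTX3L, at positions -6 to 4 from its start (chr3:122564332-122564341), and that of PARP9, at -41 to -32 from 1 of its 2 listed starts, are the same bases, since these starts lie 38 bases apart and point away from each other. In PARP14 the match lies at -29 to -20, and in PARP12 at -10 to -1. The stretches from 60 bases before to 10 after the start are shown 5′ to 3′ on the strand of the gene, to set the shared element of PARP9 and DTX3L beside those of PARP14 and PARP12 and beside PARP1, which has none. Capitals mark the ISRE match, which in PARP12 reads on the opposite strand. The first 3 windows are chr3:122564278-122564347 (plus), chr3:122680779-122680848 (plus) and chr7:140062942-140063011 (minus), and the last is chr1:226408084-226408153 (minus).
DTX3L: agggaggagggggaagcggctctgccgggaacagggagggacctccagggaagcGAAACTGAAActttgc
PARP14: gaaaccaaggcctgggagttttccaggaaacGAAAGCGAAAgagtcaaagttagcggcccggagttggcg
PARP12: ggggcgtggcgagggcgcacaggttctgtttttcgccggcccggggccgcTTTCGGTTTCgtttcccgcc
PARP1: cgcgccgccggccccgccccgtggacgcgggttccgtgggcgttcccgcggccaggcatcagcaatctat

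The match was thus present in PARP12, which did not pass the test, as well as in PARP9, DTX3L and PARP14, which rose. A match is a run of letters and not a measured binding site. The gamma-interferon activated site, written TTCNNNGAA with N for any base, which reads alike on both strands, matched in 7.66% of all windows and, among the 10 genes, in PARP14 at -40 to -32 and in PARP2 at -154 to -146. The core of the element bound by the aryl hydrocarbon receptor, GCGTG, matched in 36.5% of all windows. Among the 10 genes it matched in the windows of PARP1, PARP2, PARP3 and PARP12 and in some but not all windows of PARP8.

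In the control libraries PARP1 (16.5 ± 0.137 RPKM, SD, n = 2) and PARP4 (15.2 ± 0.610) had the highest levels per length. PARP10 (8.22 ± 0.207), PARP14 (8.01 ± 0.133) and DTX3L (7.94 ± 0.0824) followed, PARP14 overlapping with each of the others and PARP10 lying above DTX3L in both libraries, and PARP12 (7.44 ± 0.219) lay just below them. PARP2 (6.20 ± 0.154) and PARP3 (5.92 ± 0.282) overlapped too, and PARP8 (2.85 ± 0.0388) and PARP9 (1.97 ± 0.00518) were lowest. This order is of RPKM on the exon lengths used and may differ on other lengths, as described below for PARP1 and PARP9. In the ISO libraries the order began in the same way, with PARP10 at 9.97 ± 0.538, DTX3L at 9.47 ± 0.378 and PARP14 at 9.41 ± 0.524, all overlapping, and PARP12 at 7.54 ± 0.0493 now well below the other 3.

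**Figure D1:**
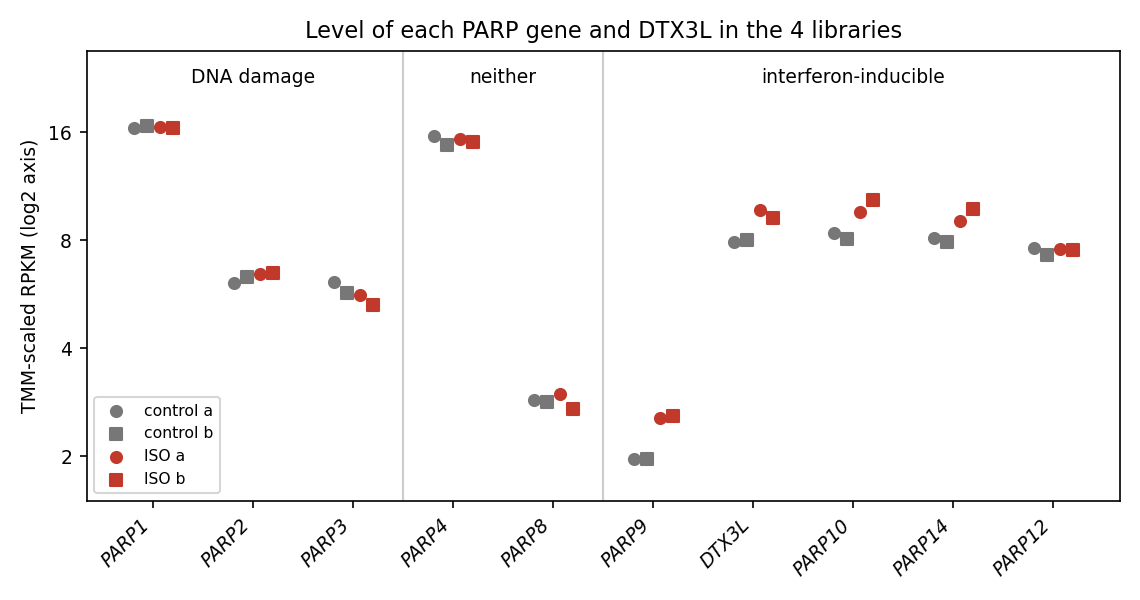
Level of each gene in TMM-scaled RPKM (log2 axis) in the 4 libraries, control in grey and ISO in red, circles for libraries a and squares for libraries b. Both ISO libraries lie above both control libraries for PARP9 (2.55 and 2.58 against 1.97 and 1.96), DTX3L, PARP10 and PARP14, while the points of PARP1, PARP4, PARP8 and PARP12 are mixed.

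PARP1, the main DNA-break sensor of the family, stood at 16.4 and 16.6 RPKM in control a and b and at 16.6 and 16.5 RPKM in ISO a and b. The 4 libraries were mixed. Its log2 fold change was 0.00 (SE 0.037, 95% confidence interval -0.09 to 0.09, limma adjusted p = 0.99), so a change beyond 1.06-fold upward or 0.94-fold downward lies outside the interval. PARP1 is also the most precisely counted of these genes, with 10590 to 13165 reads per library. Its RPKM is spread over 18399 exon bases in GENCODE, where the MANE Select transcript has 3978, a ratio of 4.63, which lowers its RPKM beside the other genes without touching the comparison of libraries.

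PARP2, the close relative of PARP1, was at 6.09 and 6.31 RPKM in the control libraries and at 6.43 and 6.50 RPKM in the ISO libraries. Both ISO libraries were higher, but by little more than the gap between the controls (log2 fold change 0.06, 95% confidence interval -0.05 to 0.17, limma adjusted p = 0.46). PARP3 went the other way, with 6.12 and 5.72 RPKM in control and 5.62 and 5.30 RPKM in ISO libraries. Its log2 fold change of -0.11 did not pass (95% confidence interval -0.25 to 0.02, limma adjusted p = 0.25). On the deposited scale the changes of PARP1, PARP2 and PARP3 were 0.07, 0.13 and -0.05, and none passed (limma adjusted p = 0.26, 0.13 and 0.57). Neither scaling gave a call for a DNA-damage PARP.

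PARP4, a component of the vault ribonucleoprotein particle, and PARP8, a mono-ADP-ribosyltransferase whose role is less well known, belong to neither branch. PARP4 was at 15.6 and 14.7 RPKM in control and 15.3 and 15.0 RPKM in ISO libraries, with a change of 0.00 (95% confidence interval -0.10 to 0.10, limma adjusted p = 1). PARP8 was at 2.88 and 2.82 RPKM in control and 2.98 and 2.70 RPKM in ISO libraries, with a change of -0.01 (95% confidence interval -0.17 to 0.15, limma adjusted p = 0.96). In both genes the ISO libraries lay within or on either side of the control values.

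PARP9 is catalytically weak on its own and acts in complex with DTX3L. It had the lowest RPKM of the 10 genes and the largest change. It went from 1.97 and 1.96 RPKM in control a and b to 2.55 and 2.58 RPKM in ISO a and b. Its RPKM is spread over 8938 exon bases, where the MANE Select transcript has 3045, a ratio of 2.94 against 1.35 for PARP8. Its place below PARP8 therefore depends on the length used. The libraries of each group lay close together, and the groups were well apart. PARP9 rose 1.29-fold (log2 fold change 0.37, SE 0.061, 95% confidence interval 0.22 to 0.51, limma adjusted p = 0.017). This rests on 766 and 730 recovered reads in control and 946 and 807 in ISO libraries, and counting alone gives the change a SE of 0.051.

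DTX3L, the ubiquitin ligase that binds PARP9, was at 7.89 and 8.00 RPKM in the control libraries and at 9.73 and 9.20 RPKM in the ISO libraries. It rose 1.19-fold (log2 fold change 0.25, SE 0.046, limma adjusted p = 0.024). Both ISO libraries were above both controls, and ISO a was the higher of them. In the within-library ratio of PARP9 to DTX3L, the log2 values were -2.00 and -2.03 in control and -1.93 and -1.83 in ISO libraries. The mean shifted by 0.13 towards PARP9, which was not tested. The level of this ratio, unlike its shift, depends on exon length. The ratio of exon bases to the MANE Select transcript is 2.94 in PARP9 and 1.0 in DTX3L.

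PARP10, a mono-ADP-ribosyltransferase with RNA-binding motifs, was at 8.37 and 8.08 RPKM in control and 9.59 and 10.4 RPKM in ISO libraries. It rose 1.21-fold (log2 fold change 0.27, SE 0.052, limma adjusted p = 0.025), with ISO b above ISO a. Of its 6033 exon bases, 521 (8.64%) are shared with genes of the other strand, 324 of them with GRINA. Whether the counting used strand is not given in the sources used here, so reads in that stretch cannot be assigned with certainty. GRINA itself had a log2 fold change of 0.02 (limma adjusted p = 0.82). PARP14, a macrodomain-rich enzyme that modulates STAT signalling, was at 8.11 and 7.92 RPKM in control and 9.04 and 9.78 RPKM in ISO libraries. It rose 1.17-fold (log2 fold change 0.23, SE 0.052, limma adjusted p = 0.042), the smallest change of the genes that passed, and again ISO b was the higher library.

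PARP12, an antiviral zinc-finger PARP, was the only gene of its branch here that did not pass. It stood at 7.59 and 7.28 RPKM in control and at 7.57 and 7.50 RPKM in ISO libraries, so that both ISO values lay between the controls. The log2 fold change was 0.02 (SE 0.045, 95% confidence interval -0.09 to 0.13, limma adjusted p = 0.83), and on the deposited scale it was 0.08 (limma adjusted p = 0.23). Its interval ends below the estimates of PARP9, DTX3L, PARP10 and PARP14, although the difference between PARP12 and any of them was not tested. The intervals of PARP9, DTX3L and PARP10 begin above it, at 0.22, 0.14 and 0.15, while that of PARP14 (0.10 to 0.35) overlaps with it. With 1445 to 1820 reads per library PARP12 was counted more deeply than PARP9.

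**Figure D2:**
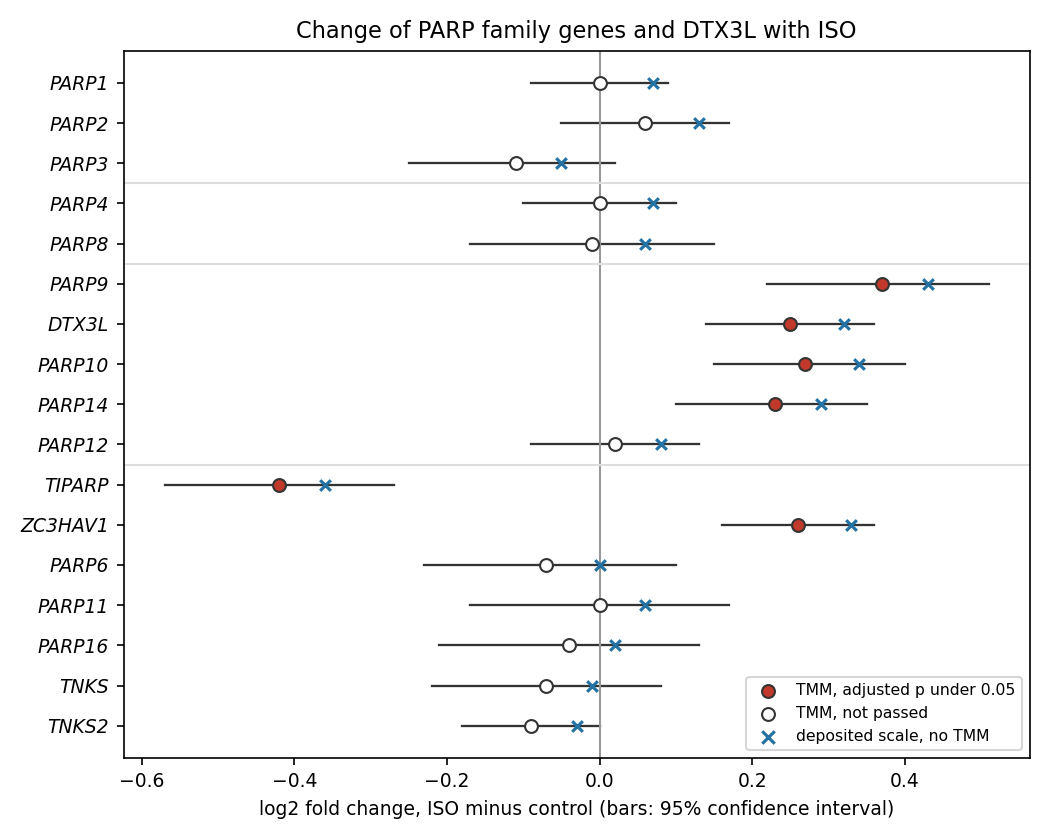
Log2 fold change, ISO minus control, of the 10 genes and of 7 other PARP family genes that could be tested, with 95% confidence intervals from limma; filled points passed at an adjusted p under 0.05, and crosses give the deposited scale without TMM. PARP9, DTX3L, PARP10, PARP14 and ZC3HAV1 lie to the right and TIPARP to the left on both scales, while the open points of the others did not pass.

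The 4 calls are near the threshold and depend on having both libraries of each group. Both control libraries and both ISO libraries were left out 1 at a time, and each omission ended all 4 of them. PARP9 then had limma adjusted p = 0.063 to 0.088, DTX3L 0.059 to 0.10, PARP10 0.053 to 0.11 and PARP14 0.065 to 0.16, while the changes stayed between 0.17 and 0.37. Over all genes, 410 to 697 were called in these fits against 1506 with all libraries, and the share that rose was 2.03% and 1.28% without control a and b and 0.725% and 0.845% without ISO a and b. Without a filter on low values none of the 4 passed (limma adjusted p = 0.070 to 0.12), 0.225% of genes rose and 214 genes were called in all. The replicate letter as a block ended the call of PARP14 (limma adjusted p = 0.072) and left those of PARP9, DTX3L and PARP10, with 2.71% of genes rising. Over all alternatives the adjusted p ran from 1.3e-04 to 0.088 for PARP9, 7.8e-04 to 0.10 for DTX3L, 3.4e-04 to 0.11 for PARP10 and 0.001 to 0.16 for PARP14, in each case lowest with limma-voom.

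**Figure D3:**
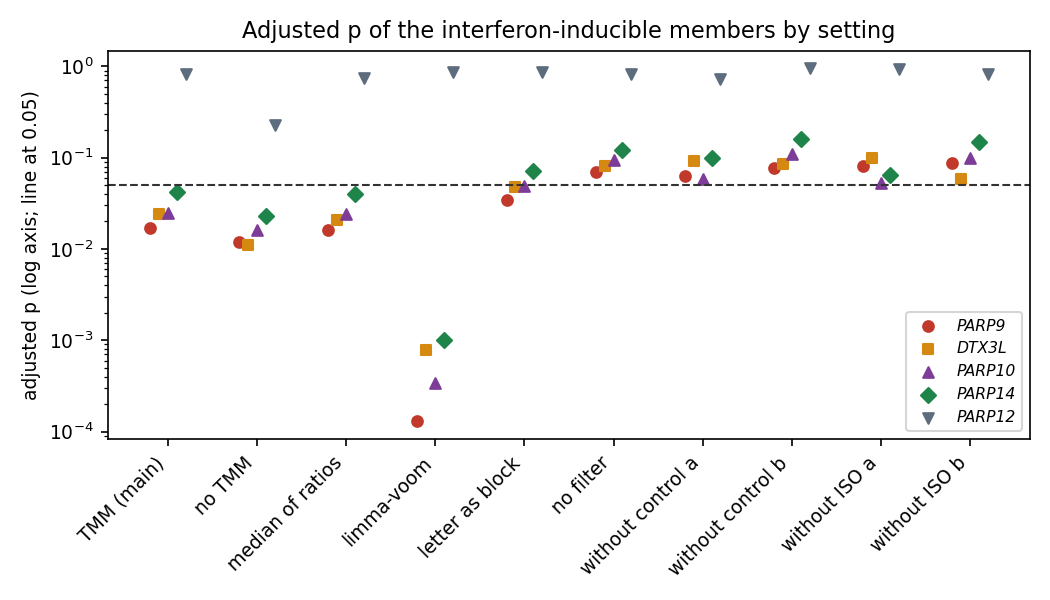
Adjusted p (log axis, line at 0.05) of the 5 interferon-inducible genes under 10 settings of the limma test, 1 symbol per gene. PARP9, DTX3L, PARP10 and PARP14 are under the line with TMM, without TMM, with limma-voom and with median-of-ratios scaling, and above it when a library is left out or low genes are not filtered, PARP14 is also above it with the letter as a block, and PARP12 is above it throughout.

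Because a ratio of genes within 1 library does not depend on scaling between libraries, each interferon-inducible gene was also set against the mean log2 level of PARP1, PARP2 and PARP3 of the same library. The mean of the 5 genes stood at -0.49 and -0.51 in control a and b and at -0.28 and -0.22 in ISO a and b, a shift of 0.25. PARP9 moved from -2.11 and -2.10 to -1.72 and -1.68, a shift of 0.40. The shifts were 0.30 for PARP10, 0.27 for DTX3L and 0.25 for PARP14, with both ISO libraries above both controls. PARP12 shifted by 0.04, less than the gap of its control libraries, which were at -0.16 and -0.21, although its ISO libraries, at -0.16 and -0.14, also lay above them by a margin lost in rounding. Ratios among the DNA-damage PARPs separated the groups too. PARP2 to PARP1 shifted by 0.06, and PARP3 to PARP1 by -0.12, from -1.43 and -1.54 to -1.56 and -1.64. PARP3 is part of the mean used here, and its lower ISO values add to each shift. How often other pairs of genes separate in this way was not tested. With 2 libraries against 2 an exact permutation test cannot give a p below 0.333, and these ratios are a description.

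**Figure D4:**
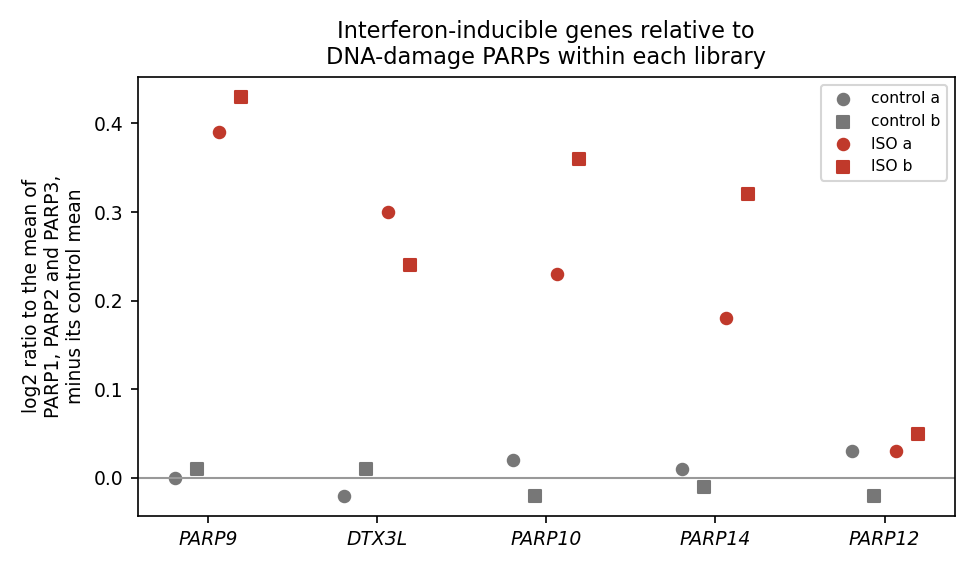
Log2 ratio of each interferon-inducible gene to the mean of PARP1, PARP2 and PARP3 in the same library, minus the mean of that ratio in the 2 control libraries. The ISO points (red) of PARP9, DTX3L, PARP10 and PARP14 lie above the control points (grey), with mean shifts of 0.25 to 0.40, whereas those of PARP12 stay near 0.

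PARP9, DTX3L and PARP14 lie in 1 stretch of chromosome 3 (hg38, GENCODE models). PARP9 runs from 122527924 to 122564577 on the minus strand, DTX3L from 122564338 to 122575203 and PARP14 from 122680839 to 122730840, both on the plus strand. The gene models of PARP9 and DTX3L overlap by 240 bases, and 139 exon bases, 1.56% of those of PARP9, are common to both. PARP15 lies between DTX3L and PARP14 and had only 3 and 4 reads in the control and 5 and 4 reads in the ISO libraries, too few to test. Of the 12 other protein-coding genes in the table within 500 kb of this stretch, 8 were tested. Where 3.89% of all tested genes rose and 5.95% fell, 0 of these 8 rose and 1 fell. That gene was FAM162A, a mitochondrial protein gene induced by hypoxia, with a log2 fold change of -0.24 (limma adjusted p = 0.040, and 0.11 to 0.17 without any 1 of the libraries). The changes of the 8 ran from -0.24 to 0.29, the highest being that of HSPBAP1, which had 87 to 123 reads per library and did not pass (limma adjusted p = 0.28).

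Of the other 8 genes of the PARP family, 7 could be tested, 1 rose and 1 fell, against 3.89% and 5.95% of all tested genes. ZC3HAV1, also called PARP13, encodes the zinc-finger antiviral protein, which is induced by interferon, binds viral RNA and has no ADP-ribosylating activity. It was at 9.83 and 10.1 RPKM in control and 11.9 and 12.1 RPKM in ISO libraries, and rose 1.20-fold (log2 fold change 0.26, SE 0.041, limma adjusted p = 0.014). Both ISO libraries were above both controls. Its window holds no ISRE match. It does hold a match of the gamma-interferon activated site, at -104 to -96, and 2 of GCGTG, which matched in 7.66% and 36.5% of all windows. TIPARP, or PARP7, a target of the aryl hydrocarbon receptor that restrains this receptor and type I interferon induction, was at 5.06 and 5.63 RPKM in control and 3.94 and 3.98 RPKM in ISO libraries. It fell, with a log2 fold change of -0.42 (SE 0.063, limma adjusted p = 0.013), the largest change of the family. The 3 windows of TIPARP hold 2 GCGTG matches and no ISRE match. The call of ZC3HAV1 ended without any 1 of the 4 libraries (limma adjusted p = 0.051 to 0.072), and that of TIPARP held in 1 of the 4 such fits. The tankyrases TNKS and TNKS2, which build ADP-ribose chains on telomere and WNT pathway proteins, had changes of -0.07 and -0.09 and did not pass (limma adjusted p = 0.52 and 0.17). PARP6, PARP11 and PARP16, a mono-ADP-ribosyltransferase of the endoplasmic reticulum, had changes of -0.07, 0.00 and -0.04 and did not pass either (limma adjusted p = 0.58 to 0.99). Over the 7 genes the median change was -0.07.

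Of STAT2, IRF9, IRF1 and IRF7, transcription factors that interferons act through, 2 rose and 0 fell, against 3.89% and 5.95% of all tested genes. IRF9, the DNA-binding partner of STAT2, rose 1.46-fold, from 2.20 and 2.23 RPKM to 3.04 and 3.55 RPKM (log2 fold change 0.55, limma adjusted p = 0.013). IRF7, an amplifier of interferon genes, rose 1.17-fold (log2 fold change 0.23, limma adjusted p = 0.035). STAT2 and IRF1 had changes of 0.11 and -0.09 and did not pass (limma adjusted p = 0.22 and 0.41). Without any 1 of the libraries IRF9 kept its call in 3 of the 4 fits and IRF7 in 1.

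Of 5 listed genes of NAD synthesis and salvage, which supply the substrate of PARP enzymes, 4 could be tested. Of these, 2 rose and 2 fell, where 3.89% of all tested genes rose and 5.95% fell. NMNAT1, the nuclear NAD synthase, rose from 2.72 and 2.73 RPKM to 3.30 and 3.36 RPKM (log2 fold change 0.28, limma adjusted p = 0.027), and NAPRT, which starts NAD synthesis from nicotinic acid, rose by 0.27 (limma adjusted p = 0.023). NAMPT, which starts it from the nicotinamide that PARP enzymes release, fell and had a log2 fold change of -0.21 (limma adjusted p = 0.035), from 12.1 and 11.9 RPKM to 10.7 and 10.1 RPKM. NMNAT2, the Golgi and cytosolic NAD synthase, fell too, with a change of -0.29 (limma adjusted p = 0.011). On the deposited scale NAMPT did not pass (limma adjusted p = 0.060). Its adjusted p ranged from 8.1e-04 to 0.14 over the alternatives. Without any 1 of the libraries the calls of NMNAT1 and NAMPT ended, and those of NAPRT and NMNAT2 each held in 1 of the 4 fits.

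The partners of the DNA-damage PARPs gave 0 calls, where 3.89% of all tested genes rose and 5.95% fell. With so few genes, 0 calls do not set a list apart from all tested genes. None of 11 tested strand-break repair genes, among them HPF1, XRCC1, LIG3, POLB, XRCC5 and XRCC6, passed in either direction, and their median change was 0.00, with a range of -0.28 to 0.18. HPF1, which directs PARP1 and PARP2 to serine residues, came nearest among the higher ones (log2 fold change 0.18, limma adjusted p = 0.063) and passed on the deposited scale (limma adjusted p = 0.020). The 6 enzymes that remove ADP-ribose, PARG, ADPRS, ADPRH, MACROD1, MACROD2 and OARD1, gave 0 calls too, with changes from -0.44 for MACROD2 to 0.31 for OARD1 (limma adjusted p = 0.088 and 0.076). MACROD1, at a change of 0.14 (limma adjusted p = 0.11), passed on the deposited scale with a change of 0.21 (limma adjusted p = 0.041). With the filter raised to 1 RPKM, HPF1 and OARD1 passed (limma adjusted p = 0.027 and 0.033). Limma-voom called MACROD2 and POLB lower and OARD1 higher (adjusted p = 0.0026, 0.044 and 0.011). At an unadjusted p under 0.05, 1 repair gene was higher and 1 lower, and among the 6 erasers 2 were higher and 1 lower, where 4125 of all 15304 tested genes were past it in either direction. Of the other Deltex ubiquitin ligases, the relatives of DTX3L, DTX1 was listed at 0 in all libraries, DTX3 was below the filter, and DTX2 and DTX4 did not pass (log2 fold changes of 0.09 and -0.14, limma adjusted p = 0.42 and 0.64).

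**Figure D5:**
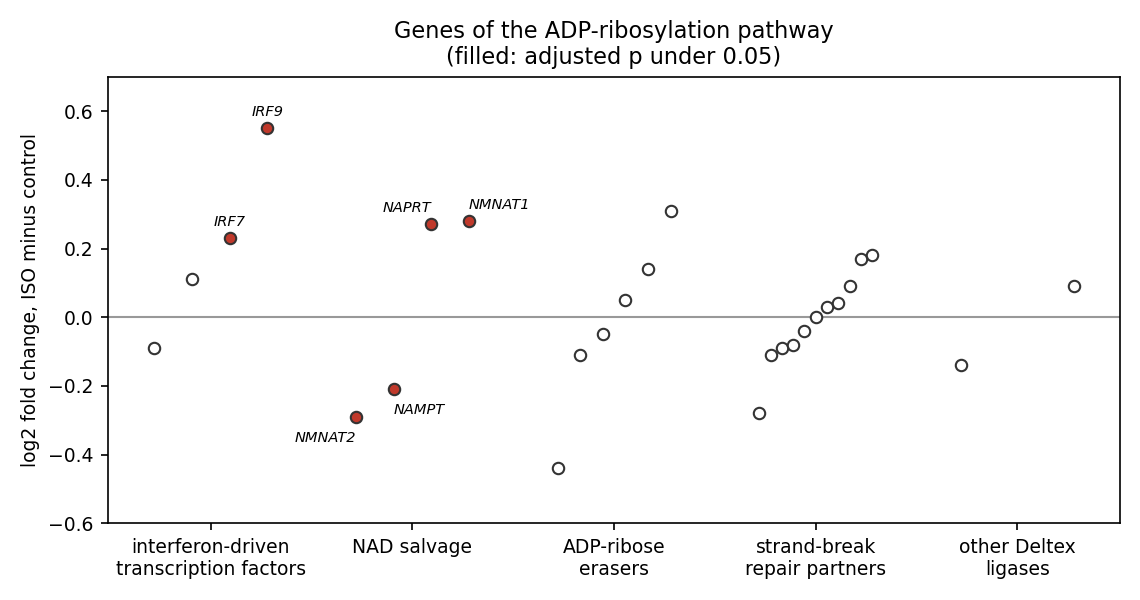
Log2 fold change, ISO minus control, of the tested genes of 5 lists around ADP-ribosylation; each point is a gene, and filled points passed at an adjusted p under 0.05 in limma. Calls are seen among the interferon-driven transcription factors (2 higher) and NAD salvage (2 higher, 2 lower), and 0 among the erasers, the repair partners and the other Deltex ligases. Of all tested genes 3.89% rose and 5.95% fell.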

How the data were processed

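T24 libraries (2 control, 2 ISO) were read from 1 deposited table of RPKM. The authors trimmed reads, aligned them to hg38 in Biomedical Genomics Workbench 22.0.2, summed reads on exons per gene and deposited RPKM without TMM or log. The authors' mean columns were not used. RPKM were divided by unweighted TMM factors (own code, 30% of log ratios and 5% of mean levels trimmed). Limma 3.58.1 in R 4.3.3 with a variance trend compared log2(RPKM + 0.1) over genes whose mean RPKM reached 0.1. Fold changes on this scale are understated for low genes. Multiplied by GENCODE v44 exon lengths, RPKM gave whole reads for 98.8% of values above 0 in each library, within 0.05 reads. A count of 0 allows up to 3 reads, or 0.0670 to 0.0885 RPKM on 1 kb. The alternatives were no TMM, median-of-ratios scaling, a pseudocount of 1 or 0.01, dropping the filter or raising it to 1 RPKM, limma-voom on recovered reads (mean of 10 or more), a block for the replicate letter, and leaving out each library, where the lone library of a group is assumed to vary like the others. The members and lists were chosen with earlier results of these data known. Named are all members, the other PARP genes and, of each further list, called genes, up to 4 in each direction; PARP10's neighbour GRINA, STAT2, IRF1, XRCC1, LIG3, XRCC5, XRCC6, PARG, ADPRS, ADPRH, MACROD1, HPF1, POLB, MACROD2, OARD1, DTX2, DTX4, HSPBAP1 and FAM162A were added after their values were seen. The limma test was run on simulated reads with the same dispersion for every gene and only with changes larger than those of DTX3L, PARP10 and PARP14. It does not show how well changes as small as theirs are recovered. Python 3.11.15 with pandas 2.3.3 and matplotlib 3.10.9 made tables and figures. Some genes of the lists are not reported here.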

Additional observations from a re-analysis of the deposited data

How the results depend on the processing

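The direction of PARP9, DTX3L, PARP10 and PARP14 was the same under every alternative run, and their calls ended only where stated here. Without a filter 214 genes, 0 of the 10 members and 0 genes of the 6 ADP-ribosylation lists passed, against 1506, 4 and 8; there 24052 genes were tested. Limma-voom called 2820 genes. Leaving out 1 library gave 410 to 697 genes, 0 members (0 to 0 over the 4 fits) and 0 to 3 list genes, with 1 residual degree of freedom. The letters a and b are not known to pair libraries (Pearson r = -0.126 between the a minus b differences of the groups, across 6208 genes above 5 RPKM); with the replicate block 1114 genes and 3 members passed, and PARP14 (adjusted p = 0.072), NMNAT1 and NAMPT lost their calls, the only ones lost to it among the members and list genes named by rule. With the letters crossed, added after the data were seen, 1391 genes and 4 members passed. Genes with changes near 0 changed sign, and the cause was not tested. Without TMM PARP1, PARP8, PARP11 and PARP16 were at 0.07, 0.06, 0.06 and 0.02, and with median-of-ratios scaling PARP1, PARP8 and PARP11 at 0.01, 0.00 and 0.01. Limma-voom put PARP4 at 0.00, just below it. Over the fits without 1 library, PARP1 ranged from -0.01 to 0.01, PARP4 from -0.04 to 0.04, PARP8 from -0.08 to 0.06, PARP12 from -0.01 to 0.05, PARP11 from -0.04 to 0.04 and PARP16 from -0.10 to 0.02. Depth limits PARP15 and DTX3, which were too low to test.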
